A study of Mus musculus with 4 samples.

Results

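Splicing factor and hnRNP genes were taken here as the protein-coding genes whose mouse GENCODE symbol starts with Hnrnp, Srsf, Sf3a, Sf3b or Snrp, together with Ptbp1. The rule gave 53 genes of the 50600 in the count files, among 21764 annotated as protein-coding. By role they are 8 Sm core proteins, 2 proteins of the U1 particle, 2 of the U2 particle, 9 SF3a and SF3b subunits, 11 SR proteins and 21 hnRNP proteins including Ptbp1. The genes were measured in 4 RNA-seq libraries of mouse Th2 cells, the helper T cells that make IL-4, IL-5 and IL-13. All 4 libraries form 1 group of primary cells from strain C57BL/6NJ with no genotype or agent contrast, differentiated in culture and placed by the file headers at a sort after 72 h. The labels call them biological replicates with separate biosamples, give all 4 the same donor identifier, and leave age and sex unstated. The comparisons are therefore between genes within a library and between replicates, and p-values measure the spread between these samples, part of which may be technical.

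Introns are removed by the spliceosome, whose U1 and U2 particles recognise the start of the intron and its branch site. Each particle is built on a ring of Sm proteins, and SF3a and SF3b belong to the U2 particle. SR proteins mostly favour the use of nearby exons, hnRNP proteins coat nascent RNA and often oppose it, and in T cells Hnrnpll and Hnrnpl act on exons of Ptprc (CD45).

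The unit of all levels is the number of fragments assigned to the annotated strand of a gene by the authors' counting, raw or scaled to transcripts per 1000000 (TPM, per exon length) or counts per 1000000 counts (CPM, not per length). Series of 4 values are in the order of replicates 1 to 4. Total counts ran from 1274431 to 1857433 per library, so that 3 counts, the limit a count of 0 allows, correspond to 1.62 to 2.35 CPM. These limits and the intervals below cover counting error only. The headers give strand option 1, and the sources used here do not give the read orientation of the library kit. Whether the fragments counted for a gene, member or partner, came from RNA of its own strand or of the other strand cannot be told apart with these files. An opposite exon, below, is exon sequence that also lies in another gene's exon on the other strand. Genes with no opposite exon held 16.4%, 8.54%, 9.14% and 20.1% of the counts in replicates 1 to 4. The 10 T cell markers had counts in every library, apart from Trbc1 at 0 in replicate 3, and summed to 427, 174, 102 and 678 CPM. In replicate 3, Cd3d and Trbc2 had only 1 count each. The 6 Th2 markers, among them Il4, Il13 and Gata3, summed to 266, 162, 152 and 424 CPM. Il5 had only 6, 7, 1 and 17 counts. Of these markers Il5 has 417 bp of opposite exon, Gata3 155 bp, Cd3e 135 bp and Stat6 40 bp. All 4 CD8 and natural killer markers were at 0 in every library, as were Ms4a1, Lyz2, Itgam, Adgre1, Col1a2 and the 4 globin genes. Other markers had counts. The 5 myeloid markers summed to 411, 451, 480 and 425 CPM, mostly from Csf1r (542 to 827 counts, 871 bp of opposite exon), with 16, 11, 33 and 0 counts of Cd68. The 4 stromal markers summed to 54.5, 42.5, 83.0 and 85.5 CPM, mostly from Pecam1 (95, 79, 120 and 106 counts). The B cell gene Cd79a had 35, 41, 9 and 2 counts, and Cd22 (479 bp of opposite exon) 14, 15, 12 and 1. Alas2, a red cell marker with 372 bp of opposite exon, had 32, 26, 11 and 20 counts.

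Of the 53 members, 19 (35.8%) had an opposite exon, against 22.1% of protein-coding genes, and 34 had none. The 22.1% is over all 21764 protein-coding genes, 9584 of them without a count. Among genes averaging 10 or more counts, 17 of 49 members and 2557 of 6071 protein-coding genes had one, so the members were not in excess there. The sequences below show such places in pairs whose counts differ widely, as given pair by pair further on. Those counts are over all exons of each gene, and fragments at the printed bases were not counted separately. They are written on the member's strand, 5′ to 3′, with bases inside an exon of the other gene in capitals. The coding stretches come from GENCODE M21 transcripts (GRCm38, the mm10 build of the files). In Srsf4, an SR protein, 1 such stretch of coding sequence (chr4:131900062-131900151, plus strand, 90 bases) lies in an exon of Gm12992.
Srsf4: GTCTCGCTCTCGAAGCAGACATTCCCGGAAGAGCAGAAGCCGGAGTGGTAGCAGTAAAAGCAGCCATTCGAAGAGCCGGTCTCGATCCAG
In Hnrnpd, which encodes the RNA-binding protein also called AUF1, the coding sequence from the start codon onward (chr5:99978459-99978624, minus strand) lies for 151 bases in an exon of Gm17092, which is annotated wholly inside Hnrnpd.
Hnrnpd: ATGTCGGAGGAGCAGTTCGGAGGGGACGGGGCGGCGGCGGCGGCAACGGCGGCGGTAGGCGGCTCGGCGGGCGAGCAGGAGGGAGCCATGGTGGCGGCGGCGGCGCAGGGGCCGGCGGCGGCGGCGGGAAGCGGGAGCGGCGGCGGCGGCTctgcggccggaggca
In Srsf1, the founding SR protein, 98 coding bases (chr11:88047909-88048006, plus strand, shown within 88047894-88048021) lie in an exon of Gm11508.
Srsf1: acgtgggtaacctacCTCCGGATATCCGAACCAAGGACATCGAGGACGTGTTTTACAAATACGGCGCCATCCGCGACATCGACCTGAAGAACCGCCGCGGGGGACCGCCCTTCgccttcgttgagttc
For Ptbp1, the polypyrimidine tract binding protein, the promoter from RefSeq (GRCm38.p6, chr10:79854182-79854446, plus strand, 265 bases ending 20 bases into the first exon) lies entirely in the single exon of E130317F20Rik, which starts 544 bp inside Ptbp1 and runs the other way.
Ptbp1 promoter: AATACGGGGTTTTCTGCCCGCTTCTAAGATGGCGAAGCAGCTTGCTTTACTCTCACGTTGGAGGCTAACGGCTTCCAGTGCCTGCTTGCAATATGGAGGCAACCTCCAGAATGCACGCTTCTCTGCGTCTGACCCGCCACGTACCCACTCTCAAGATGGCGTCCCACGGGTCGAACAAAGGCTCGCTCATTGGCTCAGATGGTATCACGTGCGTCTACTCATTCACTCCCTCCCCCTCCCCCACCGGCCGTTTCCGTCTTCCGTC
For Snrpf, an Sm protein, 84 of the 222 bases shown of the promoter (RefSeq GRCm38.p6, chr10:93589687-93589908, minus strand) lie in an exon of 4933408J17Rik.
Snrpf promoter: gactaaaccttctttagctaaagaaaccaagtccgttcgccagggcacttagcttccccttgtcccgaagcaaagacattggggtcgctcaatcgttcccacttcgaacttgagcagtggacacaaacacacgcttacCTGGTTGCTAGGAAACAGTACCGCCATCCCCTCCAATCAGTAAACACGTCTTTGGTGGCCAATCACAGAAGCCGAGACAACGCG
The Hnrnpd stretch holds 30 CpG dinucleotides and the Srsf4 stretch 7.

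Counts of the 53 genes together made up 0.483% of replicate 1 (95% Wilson interval 0.473% to 0.493%), 0.241% of replicate 2 (0.234% to 0.248%), 0.258% of replicate 3 (0.250% to 0.267%) and 0.565% of replicate 4 (0.553% to 0.579%). The mean was 0.387% ± 0.162 (SD, n = 4). The intervals of replicates 1 and 4 lay above those of replicates 2 and 3 by far more than counting error. The median level over the 53 genes was 19.5, 5.89, 7.46 and 27.02 TPM, a mean of 14.97 ± 10.1 TPM (SD, n = 4), beside 9.62 ± 3.84 TPM over the 7752 genes averaging 10 or more counts. In bulk samples fewer cells of a type and less RNA per cell cannot be told apart. A count in every library was found for 51 genes, and 49 averaged 10 or more counts and entered the tests. Sf3b4, Sf3b5, Srsf12 and Snrpn did not. The plot of all 53 genes by role gives every value.

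**Figure D1:**
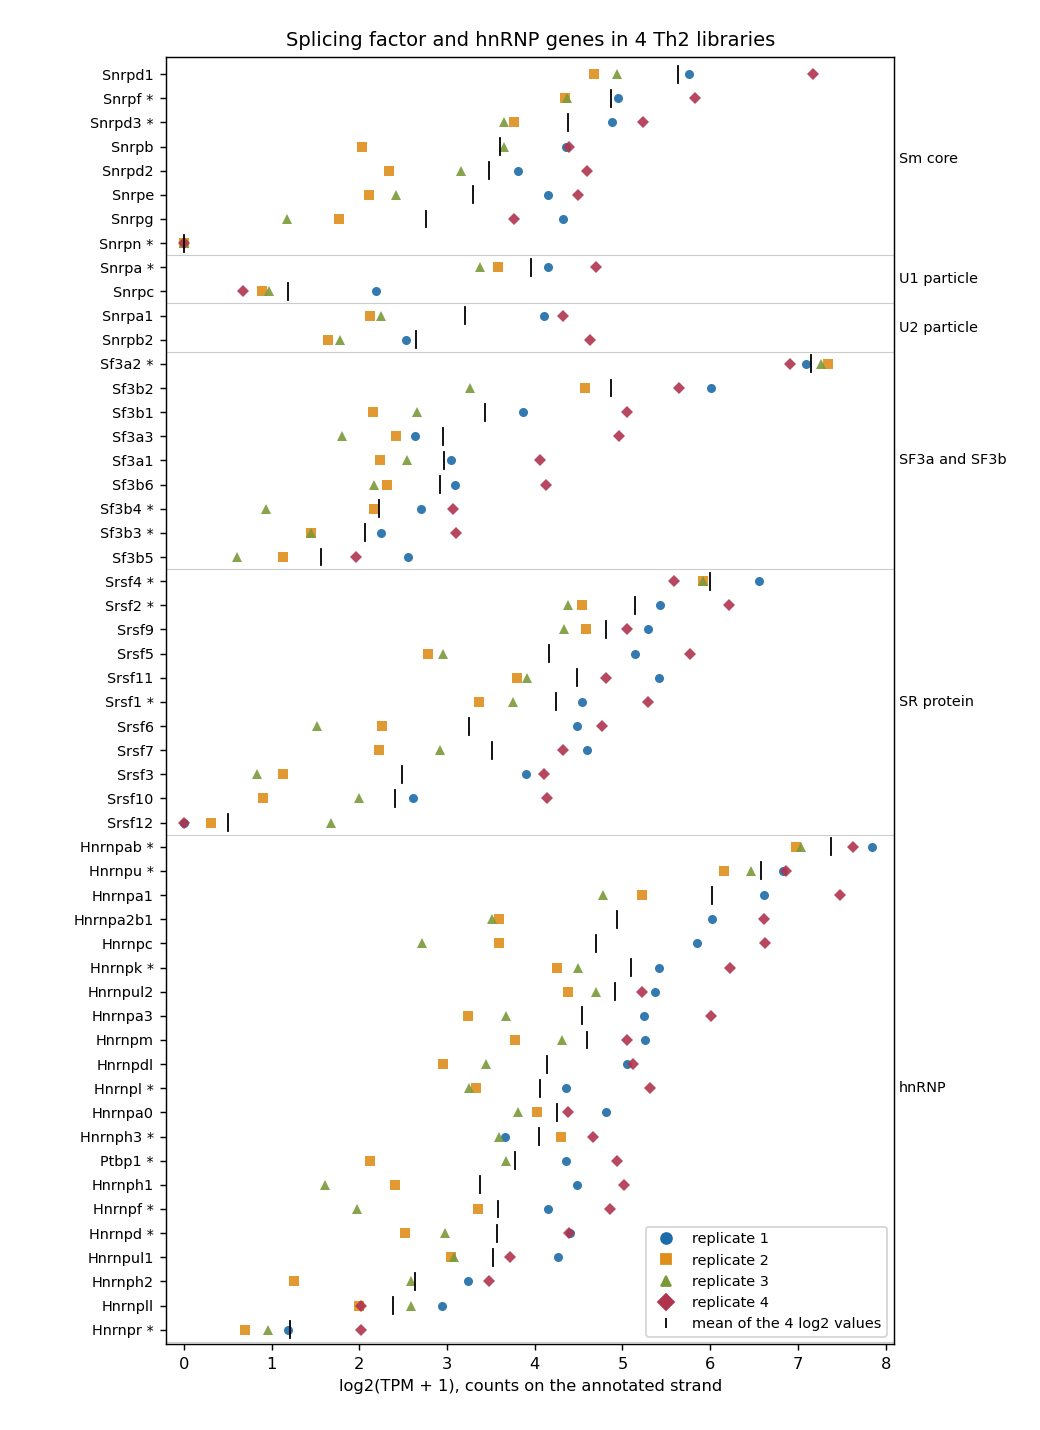
Level of each of the 53 genes as log2(TPM + 1) on the horizontal axis, 1 symbol per replicate and a black tick at the mean of the 4 log2 values, grouped by role and ordered by mean TPM. An asterisk marks the 19 genes with an exon opposite another gene. Replicates 1 and 4 lie to the right of replicates 2 and 3 in most rows, and Snrpn is at 0 in all 4.

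The Sm core proteins had a median level of 13.8 ± 8.59 TPM (SD, n = 4). Snrpd1, the ring protein listed highest, had 53.1, 24.4, 29.7 and 143 TPM, with a mean of 62.5 ± 55.03 TPM (SD, n = 4). Replicate 4 stood far above the rest, and leaving it out lowered the mean to 35.7. Snrpf, with 735 bp of opposite exon, followed with 29.8, 19.4, 19.6 and 55.9 TPM, and its mean was 31.2 ± 17.2 TPM (SD, n = 4). Snrpd3 stood at 28.5, 12.6, 11.5 and 36.5 TPM, a mean of 22.3 ± 12.3 TPM (SD, n = 4). In both genes replicates 2 and 3 nearly coincided and the other two were higher. Snrpb, which encodes the SmB proteins, had 19.5, 3.07, 11.6 and 19.97 TPM. Snrpg, the lowest ring protein with a count, had only 35, 5, 2 and 16 counts, or 19.05, 2.41, 1.26 and 12.6 TPM in replicates 1 to 4, and its mean of 8.82 ± 8.501 TPM (SD, n = 4) was 5.42 without replicate 1. Snrpd2 and Snrpe lay between Snrpb and Snrpg. Snrpn, the imprinted relative of Snrpb known from brain, had no count in any library, which allows up to 1.05 to 1.71 TPM. It shares 589 bp of exon with Gm38393 and 216 bp with Snurf on its own strand, so that its count is uncertain.

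The U1 particle is represented by Snrpa, which binds the U1 RNA, and Snrpc, which helps to recognise the 5′ splice site. Snrpa had 16.7, 10.99, 9.38 and 24.97 TPM, a mean of 15.5 ± 7.04 TPM (SD, n = 4). Snrpc had 26, 7, 6 and 3 counts, equal to 3.57, 0.853, 0.958 and 0.595 TPM. Its 3 lower libraries all lay under 1 TPM, and without replicate 1 its mean fell from 1.495 ± 1.39 to 0.802 TPM. In the U2 particle, the proteins of Snrpa1 and Snrpb2 bind the U2 RNA as a pair. Snrpa1 had 16.2, 3.34, 3.76 and 19.1 TPM. Snrpb2 had 4.79, 2.12, 2.43 and 23.7 TPM, so that 1 library set its mean, 8.27 ± 10.4 TPM (SD, n = 4), which was 3.11 without replicate 4. The 4 genes of these particles thus differ in which of replicates 1 and 4 was higher.

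Among the 9 subunits of SF3a and SF3b, Sf3a2 (chromosome 10, 80798198 to 80804924, plus strand, 429 bp of opposite exon) stood apart. It had 135, 162, 153 and 119 TPM, a mean of 142 ± 18.9 TPM (SD, n = 4), against a median of 7.71 ± 6.06 TPM over the 9 genes. It was also the only tested member with its highest CPM in replicate 2. Sf3b2, which helps to anchor the U2 particle near the branch site, had 63.2, 22.8, 8.61 and 48.9 TPM. Sf3b1, the large scaffold that clamps the branch site helix, had 13.5, 3.47, 5.33 and 32.2 TPM, and its mean of 13.6 ± 13.1 TPM (SD, n = 4) was 7.44 without replicate 4. For Sf3a3 the values were 5.22, 4.35, 2.496 and 30.1 TPM, and the mean of 10.5 ± 13.1 TPM (SD, n = 4) became 4.02 without replicate 4. The order of Sf3b1 and Sf3a3 was not the same in all libraries, with Sf3b1 lower in replicate 2 and higher in the others. The lowest were Sf3b3 and Sf3b5. Sf3b3 had 3.76, 1.74, 1.73 and 7.57 TPM, with a mean of 3.697 ± 2.75 that was 2.41 without replicate 4. Sf3b5 had 22, 6, 2 and 9 counts, or 4.89, 1.18, 0.517 and 2.89 TPM, with a mean of 2.37 ± 1.96 that was 1.53 without replicate 1. Sf3a1, Sf3b6 and Sf3b4 had means of 7.86, 7.84 and 4.34 TPM.

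SR proteins had a median of 15.7 ± 10.98 TPM (SD, n = 4). Srsf4 (chromosome 4, 131873617 to 131901706, plus strand) was listed highest with 93.1, 59.4, 59.4 and 47.1 TPM, a mean of 64.7 ± 19.8 TPM (SD, n = 4). Of its 3561 bp of exon, 1532 bp are opposite exon. Srsf2, known as SC35 from nuclear speckles and with 748 bp of opposite exon, had 42.2, 22.3, 19.8 and 73.4 TPM. Their ranges overlapped. Srsf9 had 38.3, 22.9, 19.2 and 32.1 TPM, a mean of 28.1 ± 8.65 TPM (SD, n = 4), and was the only tested member whose counts did not vary beyond Poisson sampling. Srsf5 had 34.3, 5.89, 6.72 and 53.5 TPM, and its mean of 25.1 ± 23.1 TPM (SD, n = 4) was 15.6 without replicate 4. Replicates 1 and 4 did not overlap replicates 2 and 3 in Srsf5, as was also the case for Srsf2. Srsf10, known as a repressor when dephosphorylated, had 5.12, 0.866, 2.98 and 16.6 TPM, with a mean of 6.38 ± 7.002 that was 2.99 without replicate 4. Srsf12, its close relative, had 0, 1, 7 and 0 counts, and its mean of 0.612 TPM was 0.0802 without replicate 3. Between these lay Srsf11, Srsf1, Srsf6, Srsf7 and Srsf3, with means of 23.9, 20.6, 13.3, 13.1 and 8.01 TPM. Srsf3, the smallest SR protein, had the widest range of any tested member, with a CPM 19.01 times higher in replicate 4 than in replicate 3, from 83, 8, 4 and 67 counts.

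The hnRNP genes had the highest median of the 6 roles, 19.8 ± 11.7 TPM (SD, n = 4). Hnrnpab (chromosome 11, 51600100 to 51606847, minus strand) had 229, 125, 131 and 197 TPM, a mean of 170.3 ± 50.6 TPM (SD, n = 4), from 744, 460, 366 and 444 counts. It has 809 bp of opposite exon, and Hnrnpu has 804 bp. Hnrnpu, a large nuclear matrix and chromatin protein, had 113, 70.2, 87.1 and 115 TPM, a mean of 96.4 ± 21.6 TPM (SD, n = 4). With 1529, 1075, 1018 and 1085 counts it alone made up 17.8%, 24.1%, 27.2% and 15.1% of the counts of all 53 genes, and its CPM ranged least among the tested members, by a factor of 1.48. Hnrnpa1, a widely binding exon silencer (chromosome 15, 103240432 to 103244955, plus strand), had 97.1, 36.4, 26.4 and 177 TPM. Its mean of 84.2 ± 69.2 TPM (SD, n = 4) was 53.3 without replicate 4. Hnrnpa2b1, its paralogue, had 63.98, 11.1, 10.4 and 97.2 TPM, and its mean of 45.7 ± 42.6 TPM (SD, n = 4) was 28.5 without replicate 4. In Hnrnpa1, Hnrnpa2b1 and Hnrnpc the libraries split the same way, with replicates 1 and 4 above the other two, and Hnrnpc had 56.6, 11.1, 5.54 and 97.6 TPM. Within libraries, Hnrnpu was above its neighbour Hnrnpa1 in replicates 1 to 3 and below it in replicate 4. Hnrnpa2b1 was above Hnrnpc in replicates 1 and 3 and nearly level with it in replicates 2 and 4. Neither order was thus the same in all libraries. The lowest hnRNP genes by mean were Hnrnpll and Hnrnpr. Hnrnpr had 1.27, 0.615, 0.939 and 3.06 TPM, and its mean of 1.47 ± 1.09 was 0.941 without replicate 4. The remaining 14 hnRNP genes, Ptbp1 and Hnrnpl among them, had means from 6.24 TPM (Hnrnph2) to 38.8 TPM (Hnrnpk). Genes of this family have close paralogues and processed copies in the genome, and the sources used here do not state how fragments with several matches were counted. Hnrnpm also shares 1169 bp of exon with March2 on its own strand, so its level is uncertain.

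Hnrnpll, the T cell regulator that favours skipping of Ptprc exons, had 6.66, 2.99, 5.02 and 3.06 TPM, a mean of 4.43 ± 1.76 TPM (SD, n = 4) from 91, 46, 59 and 29 counts. Unlike most members it was lowest by CPM in replicate 4. Hnrnpl, which also acts on Ptprc, had 19.5, 9.04, 8.51 and 38.7 TPM, and its mean of 18.95 ± 14.1 TPM (SD, n = 4) was 12.4 without replicate 4. Hnrnpl was higher than Hnrnpll in all 4 libraries. Ptbp1, a repressor that binds pyrimidine-rich stretches near exons (chromosome 10, 79854427 to 79864771, plus strand), had 19.5, 3.36, 11.7 and 29.7 TPM, a mean of 16.1 ± 11.2 TPM (SD, n = 4) from 108, 21, 56 and 114 counts. Replicate 2 was the low library of Ptbp1, at a CPM 7.91 times under that of replicate 4.

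The spread between replicates was set against counting noise. In a chi-square test of each gene's 4 counts against Poisson sampling (library sizes scaled by TMM, Benjamini-Hochberg adjustment), 48 of 49 tested members varied, beside 88.2% of all 7752 genes tested. Adjusted p ran from 6.62e-110 for Hnrnpa2b1 and 9.64e-57 for Sf3b1 to 0.0352 for Snrpa, and was 0.146 for Srsf9. Most genes at large varied in the same test, which sets separate samples against counting noise alone, so it says little of these genes in particular.

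By CPM, 48 of 49 tested members were highest in replicate 1 or 4, beside 66.7% of all 7752 genes tested, the exception being Sf3a2. The lowest library was replicate 2 or 3 for 44 of the 49, beside 62.9% of all genes tested, the exceptions being Sf3a2, Srsf4, Snrpc, Hnrnph3 and Hnrnpll. Of the 32 tested members without an opposite exon, 12 were highest in replicate 1 and 20 in replicate 4, beside 27.3% and 58.7% of the 3827 tested genes of that kind. The lowest library was replicate 2 for 18 of the 32 and replicate 3 for 12, beside 40.2% and 42.9% of all such genes. Their median deviation from the 4-library mean of log2(CPM + 1) was 0.72, -0.96, -0.72 and 1.11 in replicates 1 to 4, and that of all tested genes without an opposite exon was 0.54, -0.61, -0.62 and 0.90. The members' medians had the signs of those of all such genes and the larger size in each library, a difference that was not tested. The 17 tested members with an opposite exon had medians of 0.29, -0.54, -0.45 and 0.86, while all 3925 tested genes with one lay near 0 (0.01, 0.03, 0.04 and -0.03). With TMM scaling, which shifts libraries by -0.23 to 0.24 on the log2 scale, the members kept the signs in both groups (0.61, -0.74, -0.60 and 0.88 without an opposite exon, and 0.17, -0.31, -0.33 and 0.63 with one). On that scale the medians of all genes with an opposite exon turned to -0.10, 0.26, 0.16 and -0.26. The summed T cell and Th2 markers given above were high in the same libraries, although Il4 alone was not (58.4, 59.2, 58.1 and 50.2 CPM). High there too was the share of counts in genes without an opposite exon, and their part in the result was not tested. Within the counts of genes without an opposite exon, members of that kind held 1.41%, 0.862%, 0.869% and 1.44%, a mean of 1.15% ± 0.325 (SD, n = 4), with Wilson intervals of 1.37% to 1.46%, 0.818% to 0.909%, 0.8203% to 0.9204% and 1.399% to 1.49%. The split between libraries was thus smaller on that scale, and the 2 pairs of libraries still did not overlap.

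**Figure D2:**
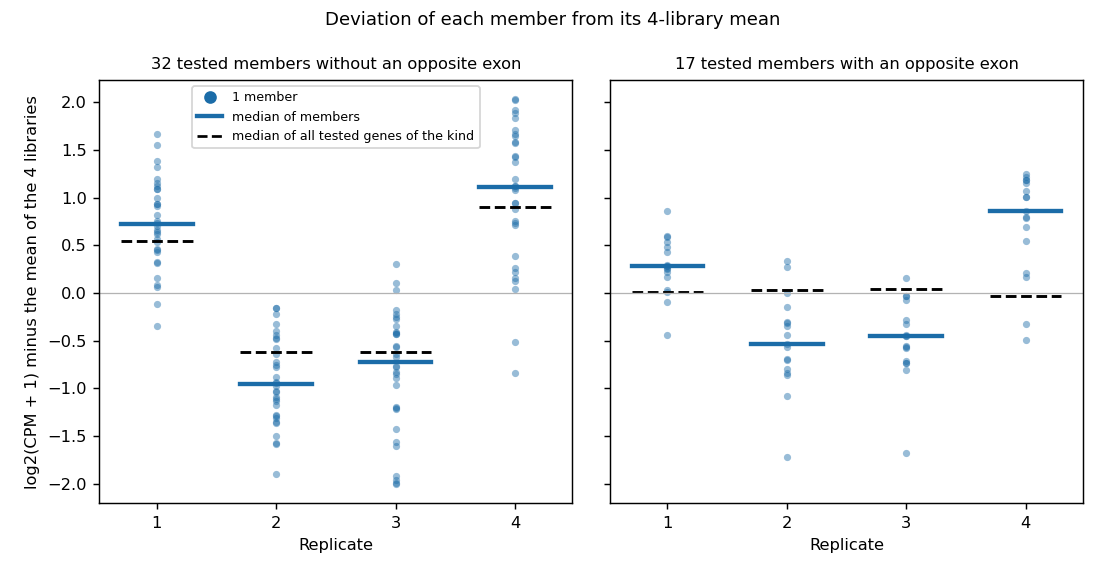
Deviation of log2(CPM + 1) from the mean of the 4 libraries, 1 point per tested member and replicate, for the 32 members without (left) and the 17 with (right) an opposite exon. Solid bars are medians of the members and dashed bars medians of all tested genes of that kind. On the left both medians are above 0 in replicates 1 and 4 and below 0 in replicates 2 and 3, and on the right the dashed bars stay near 0.

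Each library was also set against the other 3, a design with 1 library in an arm. On simulated counts the edgeR test recovered 0% of genes raised 4-fold in replicate 1 and 73% of those raised 16-fold. The simulation gave every gene 1 common dispersion, estimated over all 4 libraries, so that differences between these libraries entered it as noise. Only very large differences were reached there, and the reach on the real counts may differ. The edgeR quasi-likelihood test found 0 of 49 members at an adjusted p of 0.05 in each of the 4 comparisons, beside 0% of all genes for replicate 1, 0.0129% for replicate 2, 0.0387% for replicate 3 and 0% for replicate 4. At an unadjusted p under 0.05, edgeR gave 0, 6, 9 and 12 members, beside 0.426%, 2.79%, 9.37% and 8.81% of all genes. DESeq2 gave 0, 6, 8 and 8, beside 0.761%, 3.13%, 9.34% and 8.19%, with 0 members after adjustment. The calls depended on which libraries were in the fit. Without replicate 4, 8 of 50 members were called in replicate 1, beside 3.27% of all genes in that fit. Without replicate 3, 10 of 51 were called in replicate 2, beside 4.88%. Without replicate 2, 11 of 50 were called in replicate 3, beside 9.23%, and without replicate 1, 18 of 47 in replicate 4, beside 14.6%. No test was made of the members' share against that of all genes.

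Members with and without an opposite exon were compared within each library. The median log2(TPM + 1) of the 19 members with one exceeded that of the 34 without by 0.07, 1.26, 0.96 and 0.62, a mean of 0.73 ± 0.51 (SD, n = 4). The difference was above 0 in 4 of 4 libraries, though close to 0 in replicate 1, and the exact two-sided sign-flip permutation test gave p = 0.13, the smallest value 4 libraries allow, so the design cannot reach 0.05. All protein-coding genes with a count showed 1.17 ± 0.18 on the same scale, a larger difference. By counts, the 19 held 0.251%, 0.167%, 0.179% and 0.275% of the libraries and the 34 held 0.232%, 0.0737%, 0.0794% and 0.291%. The low libraries of the second group differ more from its high ones than those of the first.

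Genes on the other strand could be compared with 14 of the 53 members. Of 24 pairs sharing at least 1 bp of exon, 20 shared at least 100 bp and 19 of these had a count. In 17 of the 19 pairs, which hold 12 different members, the partner had more counts per kb of its exons than the member in 4 of 4 libraries. The same held for 52.7% of 3686 such pairs of all protein-coding genes, and for 65.3% of the 1746 whose partner is not protein-coding. Among the 3686, a pair of 2 protein-coding genes enters once from each side, and only 1 side can have the denser partner. The 52.7% is therefore low by construction. It is not a like comparison for the 19 pairs, which enter from the member's side only. The 65.3% leaves out protein-coding partners, which are 11 of the 19 here, so it is not a like comparison either. The median log2 ratio of counts per kb, partner over member, with a pseudocount of 1, was 3.86. Each pair was tested with the exact sign-flip permutation test, and each reached the smallest p possible, 0.13 before and after adjustment over pairs. By annotation the 19 partners were 11 protein-coding genes, 2 antisense genes, 2 long intergenic RNAs, 2 genes to be experimentally verified, 1 processed transcript and 1 bidirectional promoter RNA. Counts listed under either gene of a pair may come from RNA of the other, so no level here is read as that of the mRNA.

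**Figure D3:**
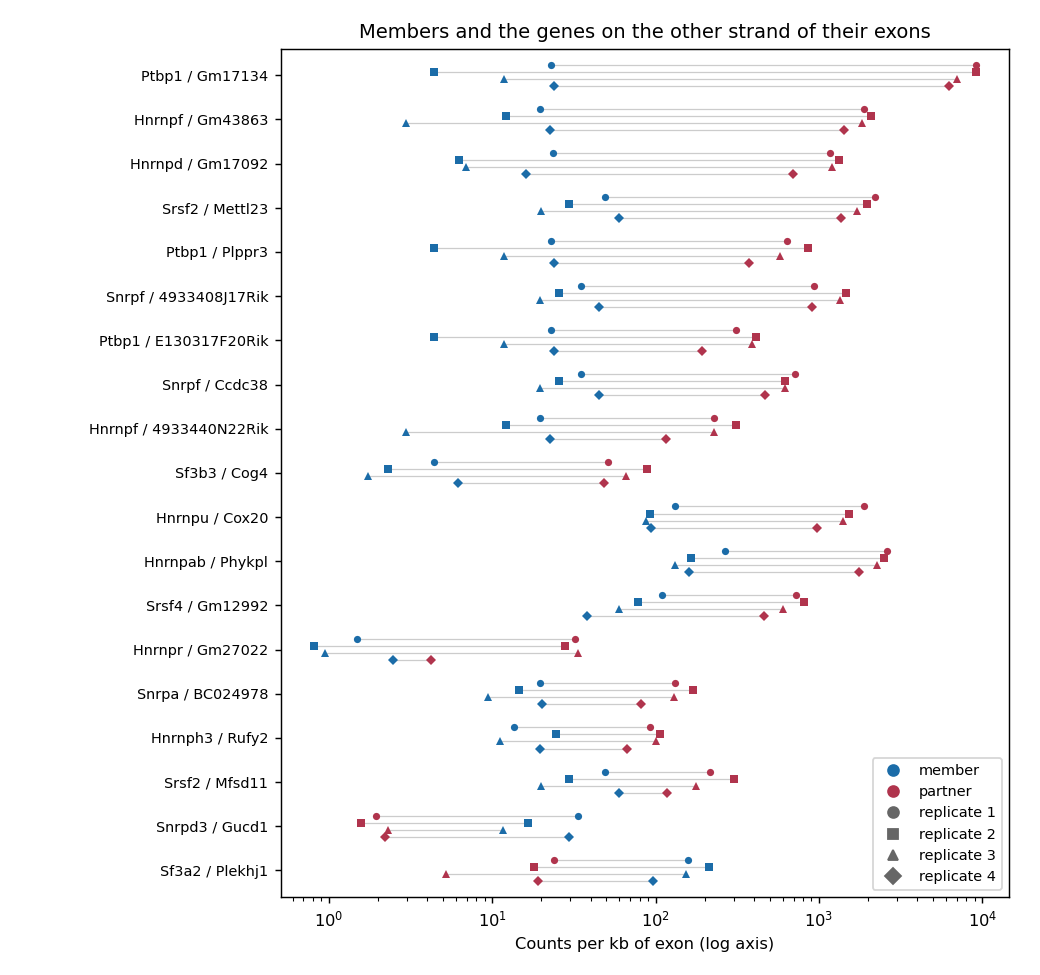
Counts per kb of exon on a log axis for the 19 pairs that share at least 100 bp of exon and have a count, with members in blue and the partner on the other strand in red, 1 symbol shape per replicate and a grey line joining the 2 genes within a library. Partners lie to the right of members in 17 pairs, and to the left for Snrpd3 and Sf3a2, in all 4 libraries.

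Tail to tail pairs, 6 of the 19, include the most abundant. Phykpl, which encodes an enzyme of hydroxylysine breakdown, had 25486, 24264, 21990 and 17041 counts (13988 ± 971 CPM) and Hnrnpab 744, 460, 366 and 444. They share 809 bp, of which 719 bp are 3′ UTR of Hnrnpab and 90 bp coding, and the log2 ratio per kb was 3.69 ± 0.38 (SD, n = 4). Hnrnpab, the member with the highest TPM, thus held only 2.84%, 1.86%, 1.64% and 2.54% of the counts of the pair. Gm12992 had 4243, 4733, 3526 and 2720 counts beside 388, 279, 213 and 136 for Srsf4, with 895 coding and 637 3′ UTR bases shared and a log2 ratio of 3.23 ± 0.36. Cox20, a cytochrome oxidase assembly factor, had 1659, 1356, 1235 and 863 counts, close to the counts of Hnrnpu but over a much shorter exon length, for a log2 ratio of 3.80 ± 0.30. The 804 shared bases lie in a noncoding transcript of Hnrnpu. Ccdc38 had 3057, 2671, 2668 and 2009 counts beside 30, 22, 17 and 39 for Snrpf, a log2 ratio of 4.27 ± 0.67, and Snrpf held 0.972%, 0.817%, 0.633% and 1.904% of that pair. With 4933408J17Rik at its other end (1726, 2717, 2510 and 1683 counts, log2 ratio 5.20 ± 0.84), Snrpf has 735 of its 861 exon bases opposite other genes. Hnrnph3 and Rufy2, which share 115 coding bases, had a log2 ratio of 2.38 ± 0.61.

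Ptbp1 has 3 such partners, and the ratio was widest there. Gm17134, whose whole exon length of 437 bp lies in the 3′ UTR of Ptbp1 (chromosome 10, 79863937 to 79864434, minus strand), had 3976, 3981, 3076 and 2720 counts against 108, 21, 56 and 114. Ptbp1 held 2.64% of the counts of the pair in replicate 1 (95% Wilson interval 2.195% to 3.18%), 0.525% in replicate 2 (0.343% to 0.801%), 1.79% in replicate 3 (1.38% to 2.31%) and 4.02% in replicate 4 (3.36% to 4.81%). No 2 of these intervals overlap, apart from replicates 1 and 3. Per kb, Gm17134 had 9098, 9109.8, 7039 and 6224 counts and Ptbp1 22.8, 4.43, 11.8 and 24.1, a log2 ratio of 9.09 ± 1.18 (SD, n = 4). Gm17134 had 2159 ± 49.4 CPM, and its SD of log2(CPM + 1) was 0.03, or 0.21 with TMM scaling, beside 1.25 and 1.06 for Ptbp1. With TMM-scaled library sizes its counts too varied beyond Poisson sampling (chi-square, adjusted p = 2.34e-42). Plppr3 (tail to tail, 251 bp shared, of which 178 bp coding) had 2761, 3730, 2506 and 1625 counts and a log2 ratio of 5.36 ± 1.45. E130317F20Rik, the gene over the promoter shown above, had 1120, 1486, 1394 and 694 counts and a log2 ratio of 4.46 ± 1.44.

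Srsf2 lies inside Mettl23 and head to head with Mfsd11. Mettl23, a methyltransferase-like gene, had 5939, 5320, 4603 and 3657 counts beside 146, 87, 59 and 176 for Srsf2, with 460 bp of the Srsf2 3′ UTR shared and a log2 ratio of 5.58 ± 0.82. Mfsd11, which shares 288 coding bases of Srsf2, had 1521, 2129, 1254 and 827 counts and a ratio of 2.37 ± 1.07. Gm43863, inside Hnrnpf over 396 bp of its 5′ UTR, had 2245, 2485, 2186 and 1699 counts beside 60, 37, 9 and 69, a ratio of 7.15 ± 1.28. Hnrnpf binds runs of G in RNA, and its share of that pair was 2.603%, 1.47%, 0.41% and 3.903%. The antisense gene over the start of Hnrnpd, Gm17092, had 821, 932, 844 and 483 counts and a ratio of 6.42 ± 1.13. Below the 100 bp limit, Gm11508 opposite the Srsf1 sequence shown had 1190, 1382, 1093 and 633 counts beside 149, 70, 72 and 177 and a ratio of 6.88 ± 1.06. Sf3b3 with Cog4, Snrpa with BC024978, Hnrnpf with 4933440N22Rik and Hnrnpr with Gm27022 had ratios of 3.86 ± 0.98, 2.94 ± 0.78, 4.05 ± 1.52 and 3.12 ± 1.70. Undivided by length, Hnrnpr had 33, 18, 21 and 55 counts and Gm27022 only 23, 20, 24 and 3. In replicates 1 and 4 the member thus had more counts, over 22199 bp of exon against 715 bp.

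The 2 pairs in the other direction were both head to head. Plekhj1 had 41, 31, 9 and 33 counts beside 421, 568, 409 and 257 for Sf3a2, a log2 ratio of -3.28 ± 1.04, with 429 bp of the 5′ UTR of Sf3a2 shared. Gucd1 had 16, 13, 19 and 18 counts beside 115, 57, 40 and 102 for Snrpd3, a ratio of -2.87 ± 0.71. Across the 19 pairs the member's share of the counts had a median of 8.38%, 3.93%, 3.86% and 10.3% in replicates 1 to 4, again higher in replicates 1 and 4. Partners varied less than members in 17 of 19 pairs, with a median SD of log2 CPM of 0.26 for partners and 0.68 for members. Partners also had more counts, not divided by length, in 15 of the 19 pairs, and the part of counting error was not tested. With TMM scaling partners varied less in 13 of 19 pairs, with medians of 0.45 and 0.54. The same count over all pairs of genes was not made. Over all tested genes the median SD of log2(CPM + 1) was 0.43 with an opposite exon and 1.05 without, or 0.51 and 0.92 with TMM scaling.

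**Figure D4:**
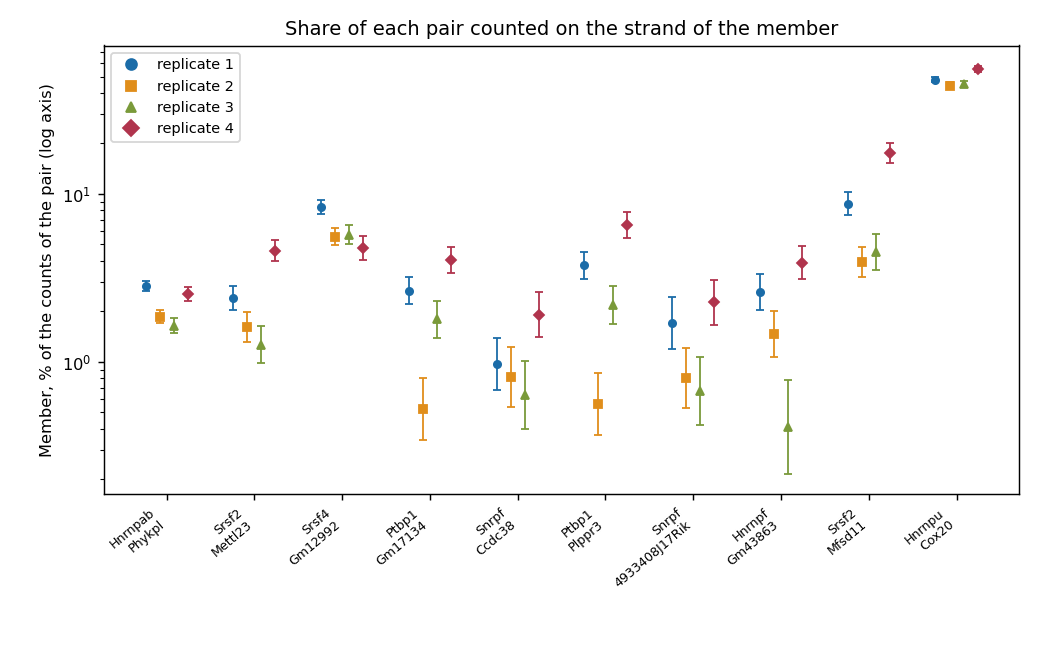
Percent of the counts of a pair that lie on the strand of the member, on a log axis, for the 10 pairs with the highest partner CPM, 1 symbol per replicate with its 95% Wilson interval. Hnrnpu holds between 44.2% and 55.7% of its pair, in the other 9 pairs the member holds under 20%, and replicate 4 is the highest in 8 of the 10.

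Where the shared bases lie in the member was read from GENCODE M21. Of the 20 pairs sharing at least 100 bp, 9 shared mostly 5′ UTR of the member, 5 mostly 3′ UTR and 4 mostly coding sequence, and 9 shared some coding bases. By geometry the 19 pairs with a count were 7 head to head, 6 tail to tail, 5 with the partner inside the member and 1 with the member inside the partner.

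Other splicing genes were counted in the same way. Of 43 further spliceosome genes, such as Prpf8 and U2af1, 41 were tested and 37 varied beyond Poisson sampling, beside the 88.2% of all genes given above. Their median level was 11.2, 3.66, 3.80 and 12.03 TPM in replicates 1 to 4. The highest was Prpf39, a U1 particle factor with 305 bp of opposite exon, at 562.7 ± 59.7 TPM (SD, n = 4). Of 34 splicing regulators, among them Pcbp2, Rbm39 and Sfpq, 31 were tested and all 31 varied, with a median of 9.30, 3.08, 4.19 and 14.4 TPM. Both lists had their higher medians in replicates 1 and 4, as did all tested genes, whose median was 11.5, 6.21, 6.65 and 14.1 TPM.

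Promoter sequences from RefSeq (GRCm38.p6, 250 bases before to 50 bases after the first listed start) were matched for 47 of the 53 members. Searched on both strands, GGGCGG was in 33 of the 47 windows (70.2%), beside 35.9% of 27025 promoters and 46.3% of 17492 protein-coding ones. CCGGAAG was in 16 (34.0%), beside 9.12% and 11.9%, and CTCGCGAG in 3 (6.38%), beside 0.958% and 1.298%. TATAAA was in 6 (12.8%), beside 14.2% and 13.3%. The median number of CpG dinucleotides per window was 24 in members, 7 in all promoters and 13 in protein-coding ones. A match describes letters in the window and not a bound site.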

How the data were processed

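Fragment counts per gene were taken from the authors' deposited tables for 4 Th2 libraries. Per the file headers they are raw counts made with featureCounts 1.4.6-p4 from STAR alignments, counting paired fragments over exons with strand option 1, GENCODE M13 and mm10. No version of STAR is given in the sources used here. Per the labels the assay is total RNA-seq, while the linked library protocol is named for poly(A) RNA. Total counts were 1780682, 1857433, 1446040 and 1274431 in replicates 1 to 4. Symbols and biotypes came from GENCODE M21 by identifier (50376 of 50600 matched). TPM and CPM were computed from these counts, TPM with the files' exon lengths. Exon overlaps came from bedtools 2.31.1. Tests used edgeR 4.0.16 with TMM, with DESeq2 1.42.0 as an alternative (R 4.3.3), over the 7752 genes averaging 10 or more counts, and Benjamini-Hochberg adjustment at 0.05. Sign-flip permutation tests were exact over 4 libraries (Python 3.11.15). In simulated counts for 7752 genes, a sampled set of genes was raised in replicate 1. The chi-square test recovered 65.5% of that set at 2-fold and 100% at 4-fold, and called 0% of the set with no change.

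The members and lists were chosen with earlier results of these data known. Values per library were given for the 4 highest and 2 lowest members of each role by mean TPM, for Ptbp1, Hnrnpab, Hnrnpll and Hnrnpl, for members without a count, and for the 10 pairs of highest partner CPM. Srsf3, Hnrnpc and the other pairs named were added after their values were seen. Alternatives were median-of-ratios size factors, all genes with a count, another pseudocount (0.1), FPKM, other limits on shared exon and on level, and leaving out each library. TMM scaling of the spread within pairs was added after the data were seen.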

Additional observations from a re-analysis of the deposited data

Results flagged for a closer look

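Of 43 results checked for a library far from the other 3, 4 had one. Chance gives about 1 in 20 groups such a library where values are independent and normally distributed. The 43 results share the same 4 libraries and some rest on few counts, so that rate need not hold here. Sf3a3 had a TPM of 30.1 in replicate 4 against 2.496 to 5.22 in the others (17, 16, 7 and 68 counts). Snrpb2 had a TPM of 23.7 in replicate 4 against 2.12 to 4.79 (16, 8, 7 and 55 counts). Snrpc had a TPM of 3.57 in replicate 1 against 0.595 to 0.958 (26, 7, 6 and 3 counts). Srsf12 had a TPM of 2.21 in replicate 3 against 0 to 0.241, from 0, 1, 7 and 0 counts, so that 7 fragments made the difference.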

How the results depend on the processing

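Of 58 alternatives for the results over the members, 5 moved a value and 0 reversed one. With the total taken over genes without an opposite exon and members of that kind, the members' share of counts was 1.15% in place of 0.387%, by construction of the total. Leaving out 1 library changed the number of members called by edgeR in 1 library against the rest. The range was 0 to 8 for replicate 1 (8 without replicate 4), 0 to 10 for replicate 2 (10 without replicate 3), 0 to 11 for replicate 3 (11 without replicate 2) and 0 to 18 for replicate 4 (18 without replicate 1). In those 4 fits 3.27%, 4.88%, 9.23% and 14.6% of all genes were called. The cause was not tested. Leaving out 1 library put the members' share between 0.327% and 0.436% and their median level between 10.96 and 17.998 TPM. Partners were denser than their member in 15 of 19 pairs by counts not divided by length and in 19 of 23 with at least 1 bp shared. In the other settings it was 17 of 19. Members varying beyond Poisson sampling ran from 40 of 50 without replicate 4 to 48 of 49 in the main setting. The share of all genes in those alternatives is not given here. The difference between members with and without an opposite exon stayed between 0.55 and 0.95. Leaving out 1 library moved the mean TPM of 15 named members by over 1.5 times, as given with each. No paired analysis was possible because there is 1 group. Depth limits the lowest members, such as Srsf12 with at most 7 counts, and the TPM of genes sharing exon on either strand is uncertain.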
